A study of Mus musculus with 44 samples.

Results

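The sites described here are CTCF peaks that were found in both Setdb1 KO and WT mouse embryonic stem cells (mESCs) but were weaker in Setdb1 KO, against a genome-wide rise of CTCF signal in these libraries. They are pairs of autosomal peaks that overlapped each other by at least 1 bp and no other peak, that had a WT pileup (the number of fragments covering the peak summit) of 30 or more, and whose Setdb1 KO pileup was at most 0.9 of the WT pileup. Of 40937 such pairs on the autosomes, 26226 had a WT pileup of 30 or more, and 682 of these met the ratio limit, which is 2.60% of them. The sites were chosen by the pileups of these 2 libraries, so their ratios are given as a description and no test is attached to them.

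CTCF was measured by ChIP-seq in mESCs of the TT2 line (C57BL/6 and CBA hybrid background). The Setdb1 KO cells carried a conditional Setdb1 deletion induced with 800 nM 4-hydroxytamoxifen for 4 days and were harvested on day 6. The WT cells were the clone 33#6, for which no 4-hydroxytamoxifen is recorded. Here 1 CTCF peak list per condition was used, called against the input of the same condition, and second libraries of the series were not analysed here. The peak lists hold no measure of Setdb1 deletion and no expression of stem cell genes, so neither label could be checked in them. With 1 library per condition used, the effect of the deletion, that of 4-hydroxytamoxifen and any difference between the libraries cannot be told apart.

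CTCF is a zinc finger protein that binds a long GC-rich motif and blocks the cohesin ring as it extrudes chromatin loops, so pairs of its sites often lie at loop anchors and domain borders. Its binding is lowered where its motif is methylated or packed in heterochromatin, and sites with weak or degenerate motifs tend to be bound less stably than those with a strong motif. Setdb1 is the histone methyltransferase that deposits H3K9me3 over many endogenous retroviruses and other repeats in mESCs.

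The sequences under some of these sites are shown first, because the presence of a CTCF motif was a feature in which the weaker sites differed from other shared sites, and sites with and without one are included. Each run is 60 bases of GRCm38 written in the orientation of the motif, and the capitals mark the 14-base stretch that scored best against a CTCF matrix derived from the strongest shared peaks, whose consensus reads CCANNAGGGGGCGC.

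Muc1 site (chr3:89234030-89234089, minus strand): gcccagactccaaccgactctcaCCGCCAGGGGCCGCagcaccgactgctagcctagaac
Irx2 site (chr13:72848257-72848316, minus strand): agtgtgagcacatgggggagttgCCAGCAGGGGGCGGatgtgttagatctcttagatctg
Sgcd site (chr11:48000736-48000795, plus strand): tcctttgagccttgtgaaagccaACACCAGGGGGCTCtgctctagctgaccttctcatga
Ehf site (chr2:103356395-103356454, plus strand): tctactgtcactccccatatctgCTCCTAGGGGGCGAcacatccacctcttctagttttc
Osbp2 intron (chr11:3750052-3750111, plus strand): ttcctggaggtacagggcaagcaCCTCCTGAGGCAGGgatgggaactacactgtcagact
Poldip2 intron (chr11:78515717-78515776, plus strand): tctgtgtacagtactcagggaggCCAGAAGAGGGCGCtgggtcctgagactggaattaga
Capzb intron (chr4:139252133-139252192, minus strand): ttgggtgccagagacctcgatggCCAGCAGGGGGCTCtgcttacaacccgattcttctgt
Asap3 intron (chr4:136239785-136239844, plus strand): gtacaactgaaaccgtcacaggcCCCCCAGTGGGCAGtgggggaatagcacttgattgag

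The Muc1, Irx2, Sgcd, Poldip2 and Capzb stretches passed the motif threshold, which was the 99th percentile of scores in windows 1000 bp away from the summits. Their scores were 13.2, 19.9, 13.5, 24.0 and 20.5, where the threshold was 12.3. The Ehf, Osbp2 and Asap3 stretches scored 7.67, -2.01 and 8.18 and did not pass. The Osbp2 window thus held no match past the threshold, whereas the Poldip2 match had the highest score of those printed.

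The pileups of all pairs are shown on logarithmic axes, with the limit and the median marked.

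**Figure D1:**
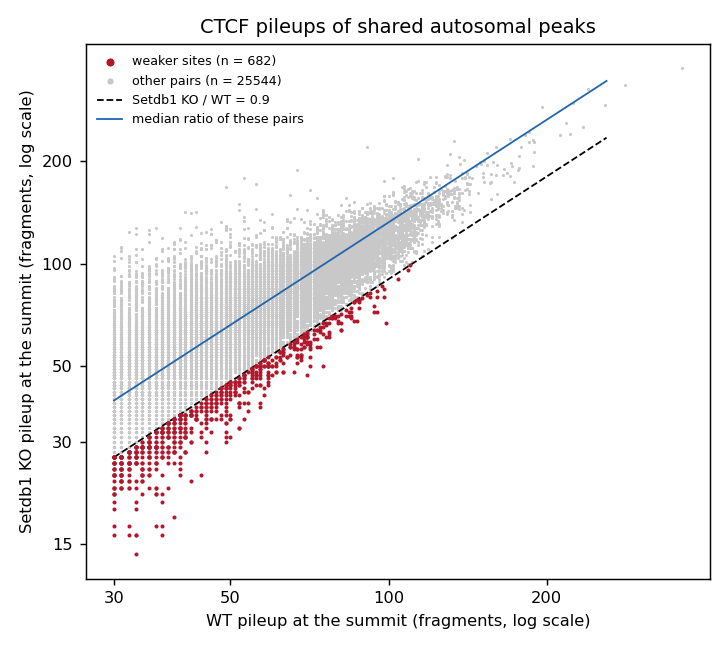
CTCF pileup at the summit in Setdb1 KO (vertical axis) and WT (horizontal axis), in fragments on log scales, for the 26226 shared autosomal peaks with a WT pileup of 30 or more. The 682 weaker sites (red) lie below the dashed line at a ratio of 0.9, and most have pileups close to the lower end, while the blue line is the median ratio of 1.32.

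The weaker sites had a median pileup of 35 fragments in Setdb1 KO and 43 fragments in WT. Their summed pileups were 26973 fragments in Setdb1 KO and 32948 fragments in WT, a ratio of 0.819. The other shared sites had medians of 72 fragments in Setdb1 KO and 52 fragments in WT, and a ratio of sums of 1.34. The median ratio was 0.835 among the weaker sites (quartiles 0.774 and 0.875) and 1.33 among the others (quartiles 1.18 and 1.51). Most weaker sites were therefore only slightly below WT, as 451 of the 682 had a ratio over 0.8 and 231 had 0.8 or less (0.881% of the 26226 pairs).

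The counts behind each ratio were small, and the intervals of the ratio were wide. They were computed from the same pileups that chose the sites, so they describe the counting error and test nothing. The exact 95% interval of the ratio lay below 1 at 18 of the 682 sites, which is 0.0686% of the 26226 pairs, and it included 1 at 664. It lay below 1.36, the median ratio of all 40937 pairs (that of the 26226 pairs was 1.32), at 482 sites. These intervals cover counting error only, and variation between cultures would widen them. How many of the 682 sites are low by counting error alone was not tested.

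The share of pairs that were weaker depended on the WT pileup. It was 4.27% at WT pileups of 30 to 39 (274 of 6417), 2.63% at 40 to 59 (264 of 10046), 1.65% at 60 to 79 (104 of 6291) and 1.15% at 80 or more (40 of 3472). The median ratio of all pairs in the same bands fell too, from 1.44 at 30 to 39 to 1.36, 1.28 and 1.22. Pairs with low WT pileups thus had both the highest median ratio and the largest share of weaker sites. Ratios of small counts spread more widely, and how much of the share this accounts for was not tested. None of the 219 pairs with a WT pileup of 120 or more was weaker, which allows a share of up to 1.37% (3 counts of the total). At the limits themselves, 24 sites had a ratio of exactly 0.9, among them a site near Stard10 with 99 fragments in Setdb1 KO against 110 in WT. The pair just outside, near Scd1, had 73 fragments in Setdb1 KO against 81 in WT, a ratio of 0.901. On the other axis, 34 weaker sites had a WT pileup of 30, and 38 pairs with a WT pileup of 29 would have met the ratio limit.

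The authors' fold enrichment, which divides the pileup by a local background estimated from the input, did not always move with the pileup. It was higher in Setdb1 KO than in WT at 144 of the 682 weaker sites (21.1%, 95% Wilson interval 18.2 to 24.3) and at 76.6% of the other sites. The local background had a median Setdb1 KO over WT ratio of 1.04 at the weaker sites and 1.05 at the others. Across all 26226 pairs the fold enrichment was lower in Setdb1 KO at 24.8%.

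The weaker sites held CTCF motifs less often than the other shared sites. A CTCF motif lay within 50 bp of the WT summit at 341 of 682 weaker sites (50%, 95% Wilson interval 46.3 to 53.7), against 19525 of 25544 other sites (76.4%, 75.9 to 77.0). The best motif score had a median of 12.3 at the weaker sites and 16.7 at the others. The matrix came from strong Setdb1 KO peaks, none of which was a weaker site, and a matrix made from the strongest WT peaks gave 52.8% and 78.0%. The intervals cover the sampling of sites, which are not replicates of a condition.

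Weak peaks hold motifs less often, so the shares were also compared at like WT pileups. Among pairs with WT pileups of 30 to 39 the motif was present at 38.0% of the weaker sites (32.4 to 43.8) and 63.4% of the others (62.1 to 64.6). The shares were 53.0% and 76.5% at 40 to 59, 64.4% and 83.5% at 60 to 79, and 75% and 87.1% at 80 or more, where the intervals (59.8 to 85.8 and 85.9 to 88.2) came close to each other without overlapping. The weaker sites thus held a motif less often in each band. The bands match the WT pileup only, and the weaker sites were chosen for a low Setdb1 KO pileup relative to it. The comparison therefore does not match peak strength in both libraries, and whether weak peaks alone would give this gap was not tested.

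**Figure D2:**
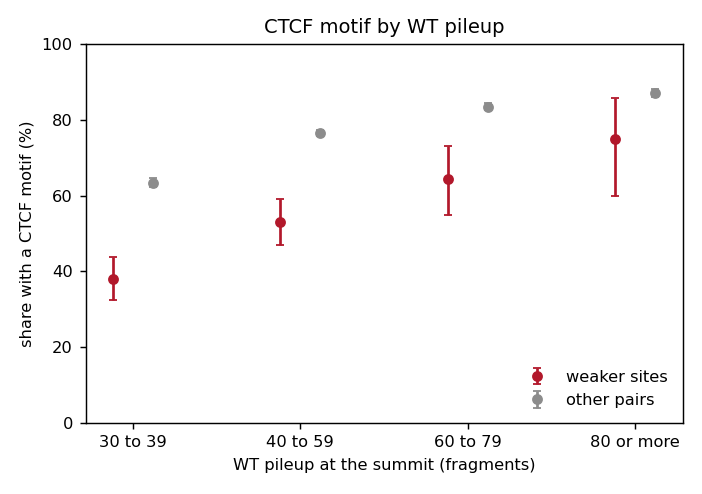
Share of sites with a CTCF motif within 50 bp of the WT summit (vertical axis, percent, with 95% Wilson intervals), for weaker sites (red, left of each pair) and other shared sites (grey), in bands of WT pileup in fragments. The share was 38.0% against 63.4% in the lowest band and 75% against 87.1% in the highest.

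The motif share also changed in steps across the whole range of ratios. It was 45.5% at ratios of 0.8 or less, 52.3% from 0.8 to 0.9, 61.9% from 0.9 to 1, 72.2% from 1 to 1.2, 78.0% from 1.2 to 1.5, 79.6% from 1.5 to 2 and 85.6% above 2. Read the other way, 5.36% of pairs without a motif were weaker sites (341 of 6360) and 1.72% of pairs with one (341 of 19866). The limit of 0.9 fell within this gradient.

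**Figure D3:**
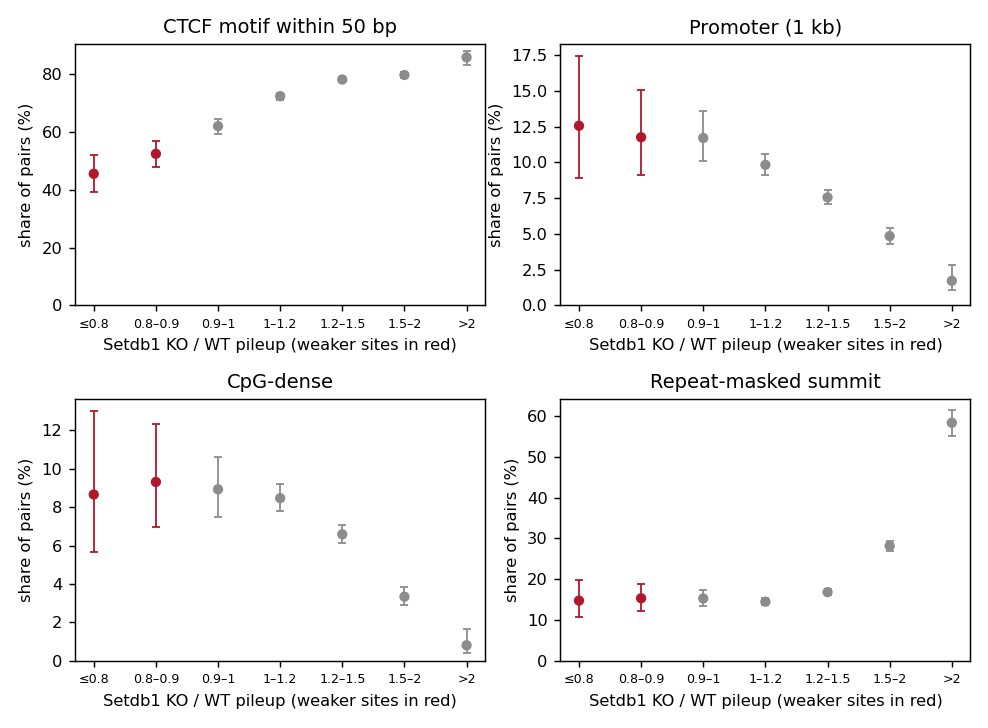
Share of shared pairs (vertical axes, percent, with 95% Wilson intervals) that held a CTCF motif, lay at a promoter, were CpG-dense or had a repeat-masked summit, in bands of the Setdb1 KO over WT pileup ratio. Weaker sites are the 2 red bands at the left, where 45.5% and 52.3% held a motif and 14.7% and 15.3% had a repeat-masked summit.

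Where a motif was present, its letters differed too. Positions are counted from 1 at the first C of the 14-base core. At position 8, an A was found in 35.2% of the 341 motifs under weaker sites (30.3 to 40.4) and in 50.5% of the 19525 others (49.8 to 51.2), and a G in 64.2% and 49.2%. Motifs under weaker sites kept the A of position 3 in 73.3% of cases, and those under other sites in 85.1%. Position 9 went the other way, with the consensus G in 80.6% (76.1 to 84.5) under weaker sites and 73.5% (72.9 to 74.1) under others. At position 5, which has no consensus letter, a C was found in 45.2% and 35.4%. The letters were not compared at like WT pileups. The C at position 12 was present in 79.8% and 85.5%, and a CpG at positions 12 and 13 was present in 34.9% (30.03 to 40.1) and 40.7% (40.03 to 41.4), with intervals that overlap. A CpG at positions 2 and 3 was more frequent in motifs under weaker sites, at 9.97% (7.22 to 13.6) and 5.63% (5.32 to 5.97). The median score of motifs that passed the threshold was 16.3 at weaker sites and 18.04 at others, and the core lay a median of 12.5 bp from the summit in both.

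Repeats were less frequent under the weaker sites overall. Repeat-masked sequence made up most of the bases around the summit (50 bp to each side) at 15.1% of the weaker sites (103 of 682, 12.6 to 17.99) and at 20.1% of the others (19.7 to 20.6). The gap was in the lower pileups, with 15.3% of weaker sites and 28.5% of others at WT pileups of 30 to 39, and it had the opposite sign at 60 to 79, with 21.2% of weaker sites and 14.9% of others. The neighbouring bands of ratio, outside the weaker sites, had like shares, with 15.2% from 0.9 to 1 and 14.5% from 1 to 1.2. The share was 16.8% from 1.2 to 1.5, 28.1% from 1.5 to 2 and 58.3% above 2. A low repeat share was thus not particular to the weaker sites. Repeat families were not annotated in the references used here.

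Promoters were more frequent among the weaker sites. A summit lay within 1 kb of the start of a protein-coding transcript at 82 of 682 weaker sites (12.02%, 9.79 to 14.7) and at 1912 of 25544 others (7.49%, 7.17 to 7.81). CpG-dense sequence lay under 9.09% of the weaker sites (7.16 to 11.5) and 6.21% of the others (5.92 to 6.52). The promoter share was 11.7% at ratios of 0.9 to 1, close to that of the weaker sites, 9.82% from 1 to 1.2 and 1.72% above 2. The CpG-dense share was 8.93% from 0.9 to 1 and 8.47% from 1 to 1.2. By WT pileup, promoters held 10.6% of weaker sites and 6.84% of others at 30 to 39, 12.1% and 6.01% at 40 to 59, and 15.4% and 8.16% at 60 to 79. At 80 or more the shares were 12.5% (5.46 to 26.1) and 11.6%. Among promoter pairs without a motif 6.00% were weaker sites (41 of 683), and 3.13% of promoter pairs with one (41 of 1311), while the values elsewhere in the genome were 5.28% and 1.62%. Coding exons held 3.96% of the weaker sites (2.73 to 5.70) and 2.00% of the others (1.84 to 2.18). By WT pileup the coding exon shares were 4.74% and 1.84% at 30 to 39, and 4.17% and 1.86% at 40 to 59. They were 1.92% (2 of 104 weaker sites, 0.529 to 6.74) and 2.101% at 60 to 79. At 80 or more they were 2.50% (1 of 40, 0.443 to 12.9) and 2.53%. These last intervals include the weaker-site shares of the lower bands, so the gap cannot be placed in the lower pileups. Introns held 38.1% and 39.4%, and intergenic sequence held 43.5% and 47.7%.

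The promoter sites with the largest fall in fragments included genes of varied function. Acot11, an acyl-CoA thioesterase, had 38 fragments in Setdb1 KO against 57 in WT, 101 bp from its start. At Coil, which encodes the Cajal body protein coilin, 61 fragments were counted in Setdb1 KO against 77 in WT, 80 bp from the start. Nckap1, a subunit of the WAVE actin regulatory complex, had 48 fragments in Setdb1 KO against 63 in WT. Wt1, a transcription factor of the developing kidney and gonad, had 26 in Setdb1 KO against 40 in WT, and Cav1, the main protein of caveolae, had 39 in Setdb1 KO against 52 in WT at 2 bp from its start. The other promoters in this set were 1110032A03Rik (80 in Setdb1 KO, 98 in WT), Zfp800 (28 in Setdb1 KO, 45 in WT), Psg19 (44 in Setdb1 KO, 59 in WT), Cuedc1 (21 in Setdb1 KO, 36 in WT) and Adcy7 (38 in Setdb1 KO, 52 in WT). All 10 intervals of the ratio included 1, and none of the 18 sites with an interval below 1 was at a promoter.

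The Coil promoter is printed as an example of a weaker site on a promoter with a motif. It is the RefSeq window (GRCm38.p6) from 250 bases before to 50 bases after the start, and the capitals mark the motif core, which reads as its reverse complement on this strand.

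Coil promoter (chr11:88973685-88973984, plus strand): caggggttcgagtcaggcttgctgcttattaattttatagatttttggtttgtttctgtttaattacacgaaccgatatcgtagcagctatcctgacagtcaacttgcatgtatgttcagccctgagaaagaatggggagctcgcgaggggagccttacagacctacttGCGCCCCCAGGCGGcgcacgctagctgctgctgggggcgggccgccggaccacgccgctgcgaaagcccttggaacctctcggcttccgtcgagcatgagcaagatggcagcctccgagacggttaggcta

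The summit lay at base 171 of this window, within the 14-base core that begins at base 170. A core passing the same threshold was present in 4.65% of all 32851 RefSeq promoter windows of 300 bases (1527 windows). These windows were longer than those around the summits and those that set the threshold (50 bp to each side). A longer window has more places for a match, so this share is not comparable with the motif shares of the sites. A match is a description of the letters and does not show that CTCF contacts them.

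The 18 sites with intervals below 1, singled out by the pileups that also chose the sites and given as a description, had Setdb1 KO pileups of 14 to 67 fragments and WT pileups of 32 to 99. The largest loss in fragments was in an intron of Asap3, an Arf GTPase-activating protein, 8.14 kb from the start of Tcea3, with 67 fragments in Setdb1 KO against 99 in WT (ratio 0.677, 0.489 to 0.932). An intronic site of Rxfp2, a relaxin family receptor, had 50 in Setdb1 KO against 75 in WT (0.667, 0.457 to 0.966). A site 587 kb from Sall1, a zinc finger transcription factor, had 47 in Setdb1 KO against 70 in WT (0.671, 0.454 to 0.986). The others had WT pileups of 50 or fewer.

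The lowest ratio of all was on chromosome 18, 49.1 kb from the start of Csnk1a1 (casein kinase 1 alpha), with 14 fragments in Setdb1 KO against 33 in WT (0.424, 0.210 to 0.815). A site near Ehf, an ETS factor of epithelia, had 16 in Setdb1 KO against 37 in WT (0.432, 0.225 to 0.797). An intron of Osbp2, an oxysterol-binding protein, had 18 in Setdb1 KO against 39 in WT. Sites named by their nearest protein-coding start, Muc1 (17 in Setdb1 KO, 36 in WT), Mrgprb5 (16 in Setdb1 KO, 33 in WT), Irx2 (16 in Setdb1 KO, 33 in WT), Mrpl33 (16 in Setdb1 KO, 32 in WT), Psme1 (17 in Setdb1 KO, 32 in WT) and Sgcd (16 in Setdb1 KO, 30 in WT), were also among the 10 lowest. The Irx2 and Sgcd starts were 216 and 422 kb away. Only 8 of the 682 sites had a ratio of 0.5 or less, and all 10 of the lowest had WT pileups of 30 to 39.

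**Figure D4:**
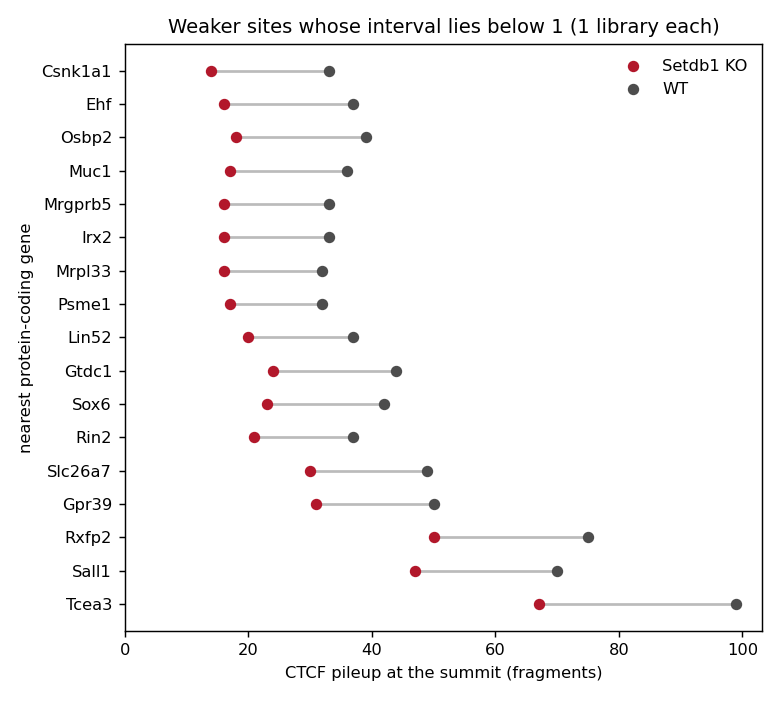
CTCF pileup at the summit in Setdb1 KO (red) and WT (dark grey), in fragments, at 17 of the 18 weaker sites whose 95% interval of the ratio lay below 1, ordered by ratio and named by the nearest protein-coding start. Setdb1 KO pileups ran from 14 to 67 and WT pileups from 32 to 99, with the Asap3 intron (Tcea3) at the bottom.

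The 10 weaker sites with the highest WT pileup had ratios of 0.677 to 0.9, the lowest being the Asap3 intron with 67 fragments in Setdb1 KO against 99 in WT. After Stard10, an intron of Poldip2 had 96 fragments in Setdb1 KO against 109 in WT, and an intron of Chrna9, a nicotinic receptor subunit, had 90 in Setdb1 KO against 104 in WT. Sites near Ces3a (84 in Setdb1 KO, 98 in WT), in Mtf1 (86 in Setdb1 KO, 97 in WT), in Capzb (83 in Setdb1 KO, 95 in WT), in Masp2 (72 in Setdb1 KO, 95 in WT) and near Acbd3 (80 in Setdb1 KO, 95 in WT) followed. With the 1110032A03Rik promoter given above they make up the 10, and the Asap3 interval was the only 1 of the 10 that lay below 1.

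The 682 sites were spread over the autosomes and over 648 nearest genes. The share of pairs that were weaker was between 1.69% (chromosome 13, 17 of 1005) and 3.42% (chromosome 16, 27 of 790), and the Wilson interval of each of these 2 included the 2.60% of all pairs. Asic2, which encodes an acid-sensing ion channel subunit, was the only gene nearest to 3 or more weaker sites. Of the 16 pairs inside this 1088 kb gene (chr11:80880169-81968457), 5 were weaker sites and the median ratio was 1.11. In order along transcription, these 5 sites had 27, 26, 36, 27 and 43 fragments in Setdb1 KO and 30, 36, 48, 32 and 48 in WT, and a further one 3.78 kb before the start had 67 in Setdb1 KO against 81 in WT. The summed pileups in the gene were nevertheless higher in Setdb1 KO, with 996 fragments against 825 in WT.

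**Figure D5:**
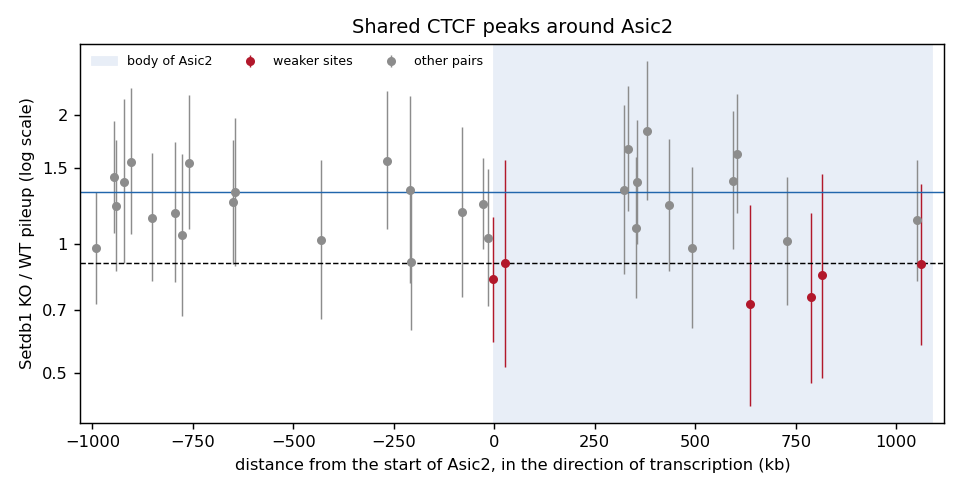
Setdb1 KO over WT pileup ratio (vertical axis, log scale, with exact 95% intervals) of shared CTCF peaks with a WT pileup of 30 or more, by distance in kb from the start of Asic2 along transcription. Weaker sites (red) lie on or below the dashed line at 0.9 among other pairs (grey), the blue line is the median of 1.32, and the shaded span is the gene.

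Places where weaker sites lay close together were picked for that, so their counts are a description. The most in 1 Mb was 6 of 36 pairs on chromosome 6 (chr6:124592359-125467657), between the complement protease genes C1rb and C1s2 and the tetraspanin gene Cd9. The Cd9 intron had 22 fragments in Setdb1 KO against 36 in WT, Acrbp had 70 in Setdb1 KO against 84 in WT, and Chd4, the ATPase of the NuRD complex, had 40 in Setdb1 KO against 46 in WT. On chromosome 7, 4 of 9 pairs between Cuzd1 and Gpr26 were weaker sites, with 19, 30, 32 and 31 fragments in Setdb1 KO and 30, 36, 36 and 35 in WT. On chromosome 5, 4 of 16 pairs lay between Oas1c, of the interferon-induced oligoadenylate synthetases, and Rpl6. In all, 12 places held 4 each, others of them around Rax and Alpk2 on chromosome 18, Plekhb1 to Stard10 on chromosome 7, Exd1 to Capn3 on chromosome 2, and the granzyme genes Gzmd to Gzmb with Gjb2 on chromosome 14. Counting these, 41 places held 3 or more, with 140 of the 682 sites.

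Neighbouring CTCF sites were somewhat farther away. Another WT peak lay within 10 kb of 44.0% of the weaker sites (40.3 to 47.7) and 53.2% of the others (52.6 to 53.8). At WT pileups of 30 to 39 the shares were 41.2% (35.6 to 47.2) and 46.3% (45.0 to 47.5). They were 42.0% and 51.2% at 40 to 59, 49.0% and 56.9% at 60 to 79, and 62.5% and 64.8% at 80 or more. A peak found in Setdb1 KO alone lay within 10 kb of 20.7% (17.8 to 23.9) and 24.4% (23.8 to 24.9), with intervals that overlap slightly. Peak widths had medians of 407.5 bp in Setdb1 KO and 358 bp in WT at the weaker sites, and 501 bp in Setdb1 KO and 402 bp in WT at the others.

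Gene groups of interest in mESCs held small numbers of these sites, and the shares are to be read against the 2.60% of all pairs. The share was above 2.60% in the Zfp, Hox, H3K9 methylation and 2-cell-stage and germline groups, and below it in the others. Its Wilson interval included 2.60% in each of these groups, so none could be told apart from all pairs. No weaker site had its nearest protein-coding start among the pluripotency genes (0 of 70 pairs, which allows up to 4.29%), imprinted genes (0 of 60, up to 5%), clustered protocadherins (0 of 53, up to 5.66%), germ layer genes (0 of 40, up to 7.50%) or CTCF and cohesin genes (0 of 25, up to 12%). The median ratio near pluripotency genes was 1.33. Zfp zinc finger genes had 12 of 373 pairs (3.22%, 1.85 to 5.54), such as Zfp867 with 22 fragments in Setdb1 KO against 36 in WT and Zfp652, a repressor, with 35 in Setdb1 KO against 53 in WT. The Hox clusters had 2 of 25, near Hoxa13 (39 in Setdb1 KO, 54 in WT) and Hoxb4 (32 in Setdb1 KO, 37 in WT). Genes of H3K9 methylation and its partners had 2 of 46, near Nsd1 (36 in Setdb1 KO, 50 in WT), whose product methylates H3K36, and at Chd4. Ribosomal protein genes had 2 of 120, olfactory and vomeronasal receptors 1 of 157, trophectoderm genes 1 of 47 (Krt7, 33 in Setdb1 KO against 42 in WT), 2-cell-stage and germline genes 1 of 7 (Sohlh2, 28 in Setdb1 KO against 33 in WT) and histone genes 0 of 14, which allows up to 21.4%.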

How the data were processed

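CTCF ChIP-seq peak lists of Setdb1 KO and WT mESCs were used, 1 library and 1 list per condition. Per the labels and the study's methods, alignment by the authors used Bowtie 1.2 and the mm10 (GRCm38) build, Picard took out duplicate reads, and MACS2 2.1.0 called narrow peaks against input. The deposited columns used were the fold enrichment at the summit (a ratio of pileup plus 1 to local background plus 1) and −log10 of its Poisson p-value and of its q-value. The deposited integer score, which is derived from the q-value, was not used beyond checking its unit.

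Pileup and background were solved from the ratio and the p-value, and all peaks gave a whole pileup within 0.001 of the −log10 p-value. The lowest background, times the genome size and divided by the fragment length that matched the background steps, gave tag numbers whose Setdb1 KO over WT ratio was 1.01. Peaks were paired by overlap of 1 bp or more, and each of a pair could overlap no other peak. Intervals of ratios are exact (Clopper-Pearson) and cover counting error only. Intervals of shares are Wilson and cover the sampling of sites only. Both are at 95%. The share that a count of 0 allows was taken as 3 counts of the total and is not a Wilson bound. Motif matches used a matrix from the 1000 strongest shared Setdb1 KO peaks. Gene positions came from GENCODE vM21 and promoter windows from RefSeq. A promoter was within 1 kb of a protein-coding start. CpG-dense meant a GC content of at least 50% and an observed over expected CpG of at least 0.6. Analyses ran in Python 3.11.15 with numpy 2.4.6, pandas 2.3.3 and scipy 1.17.1, and the steps were tested on simulated data.

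The sites named were the 10 with the lowest ratio, the 10 with the highest WT pileup, the 10 promoter sites with the largest fall, sites of fixed gene lists, clustered sites, sites at the thresholds and those with intervals below 1, the last added after their values were seen, and 1 of these sites is not reported here. The members and lists were chosen with earlier results of these data known. No test was run between conditions, since 1 library of each was used. Alternatives for the limits, pairing, scaling, promoter, motif, repeat and CpG definitions were tried.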

Additional observations from a re-analysis of the deposited data

How the results depend on the processing

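The number of weaker sites moved with the limits, from the 682 of 26226 pairs (2.60%) given above. Of the same 26226 pairs, 231 (0.881%) met a ratio limit of 0.8 and 1981 a limit of 1.0. When Setdb1 KO pileups were divided by the median ratio, 8886 of the 26226 met the limit. When the upper bound of the interval had to lie below 1, 18 (0.0686%) remained. Other WT pileup limits also changed the number of pairs. The number was about 1.2e+03 (3.58% of the 34712 pairs) with 20 or more, and 260 of a smaller set of pairs with 50 or more. The number of weaker sites was between 660 and 771 with a reciprocal overlap of 50%, summits within 100 bp, a −log10 q of 5 or more in both lists, background subtraction or scaling by tag number. The motif share moved to 45.5% (limit 0.8), 57.8% (limit 1.0), 39.3% (WT pileup of 20 or more), 62.3% (50 or more), 69.5% (divided by the median ratio), 55.6% (interval below 1) and 77.1% (95th percentile threshold). It stayed below that of the other pairs in each alternative compared (the reciprocal overlap was not), also with a matrix from the strongest WT peaks, an alternative chosen after seeing the data (52.8% and 78.0%). The promoter share moved to 15.8% (WT pileup of 50 or more), 0% (interval below 1, 18 sites), 8.36% (within 500 bp), 17.6% (within 2 kb) and 19.4% (starts of all annotated genes). The CpG-dense share moved to 11.9% (WT pileup of 50 or more) and 5.56% (interval below 1), and the repeat-masked share stayed within its interval in all alternatives, although with a WT pileup of 50 or more it was 16.2% at the weaker sites and 14.8% at the others. The cause of these shifts was not tested. The numbers of fragments per site limit what single sites can show. No paired analysis was possible because 1 library of each condition was used and the second libraries were not analysed here, so no replicate could be left out.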

Other observations

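The study also gave lists of genes without H3K9me3 that changed expression and lay within chromatin loops that changed in Setdb1 KO, chosen on samples of the same study, so they are not independent of these libraries. Of the pairs nearest to down-regulated genes in decreased loops (41 genes of that list were nearest to a pair), 7 of 107 were weaker sites (6.54%, 95% Wilson interval 3.20 to 12.9), against 2.60% of all pairs. They included both sites for which Sall1 was the nearest gene, though they lay 587 and 421 kb from its start. These had 47 and 30 fragments in Setdb1 KO against 70 and 35 in WT. An intron of Vegfa, the vascular endothelial growth factor, had 59 fragments in Setdb1 KO against 70 in WT. The remaining sites had as nearest start that of Galnt2 (80.7 kb away, 28 in Setdb1 KO, 41 in WT), Ncs1 (26 in Setdb1 KO, 36 in WT), Gpt2 (48 in Setdb1 KO, 63 in WT) and B4galnt4 (52 in Setdb1 KO, 58 in WT). The counts were 0 of 51 for down-regulated genes in increased loops, 1 of 114 for up-regulated genes in decreased loops and 1 of 74 for up-regulated genes in increased loops. These 4 lists were looked up after the other results were seen, the differences between them were not tested, and the Sall1 site with 47 fragments was the only one of the 7 whose ratio had an interval below 1.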
